A study of Mus musculus with 6 samples.

Results

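The stefin A genes of the mouse form a cluster on chromosome 16, and 6 of them (Stfa1, Stfa2, Stfa3, Csta2, Cstdc4 and Cstdc5) were followed here through liver, ovary and uterus. They were chosen by measured values, since the genes had been seen to be lower on the arrays of mice given fluorene-9-bisphenol (BHPF), and their BHPF to control ratios are therefore given as a description. Each gene was read by 1 probe, so that the set is 6 of the 20284 genes that could be named on the array. RNA came from immature female CD-1 mice, an outbred stock, with a labelled age of 24 days, and the methods and a legend of the study differ on the first day of dosing. The mice were dosed by oral gavage for 3 days with peanut oil alone (control) or with BHPF at 50 mg per kg of body weight per day. BHPF is a fluorene-based bisphenol that the study examined for anti-oestrogenic action. The 6 groups are control liver, control ovary, control uterus, BHPF liver, BHPF ovary and BHPF uterus, and each was 1 single-colour Agilent array hybridised with RNA pooled from 3 mice. The spread between animals was not measured, so no test is given and every difference lacks a replicate check.

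Stefins are small cytosolic proteins that block papain-like cysteine proteases, the cysteine cathepsins, by sitting in their active site. Humans have a single stefin A gene, known from the skin and from white blood cells, whereas in the mouse the gene has been duplicated into many close copies. Mouse stefin A transcripts are known from neutrophils and their bone marrow precursors. Because the copies resemble each other, a probe designed for 1 of them may also bind transcripts of another. Probe sequences were not used here, so the probes are best read as a family rather than as separate genes.

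The 6 arrays shared a slide and a scan. BHPF arrays occupied other positions than control arrays, so that position and treatment cannot be told apart. Between 61.3% and 74.5% of the 55681 probes were called well above background on an array. None of the probes was saturated. Levels are log2 intensities minus the 75th percentile of the array, and a log2 ratio is the level with BHPF minus the level in the control of the same tissue. Repeated spots of 1 probe on 1 array had a median SD of 0.0876 to 0.103 on the log2 scale, which gives a ratio an SD of 0.132 to 0.138 from spot noise alone. Organ markers fitted the labels of the control arrays, with summed levels of 12 liver genes of 530 in control liver against 9.44 in control ovary and 3.60 in control uterus, in multiples of the 75th percentile of the array. On the BHPF uterus array the same sum was 48.3, and all 12 liver genes were at least 2-fold higher there than on the control uterus array.

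On the arrays as labelled, the stefin A genes were brightest in control liver, lower in control uterus and lowest in control ovary. Cstdc5 had an intensity of 35787 in control liver, 7128 in control uterus and 4170 in control ovary. The corresponding values of Stfa2 were 22580, 3296 and 1457. Those of Csta2 were 9188, 1326 and 692. Every one of the 6 genes thus had its highest intensity on a control array in liver and its lowest in ovary. Control liver exceeded control uterus by a median of 3.42 on the log2 scale (10.7-fold, range 2.96 to 3.68), and 6 of 6 genes were at least 2-fold higher, as were 15.9% of all probes evaluated. Control liver exceeded control ovary by a median of 4.88 (29.5-fold, range 4.22 to 5.13), again in 6 of 6 genes, against 17.4% of all probes. Control uterus exceeded control ovary by a median of 1.43 (2.70-fold, range 1.26 to 1.67) in 6 of 6 genes, against 11.9% of all probes. The place of the uterus in this order rests on the labels of the scanner files. With the 2 uterus columns as headed in the deposited table of log2 values, which are exchanged relative to those files, control liver exceeded control uterus by 5.46, and control ovary exceeded control uterus by 0.65. The spread between pools was not measured. In a bulk sample, fewer cells of a type and less RNA per cell cannot be told apart.

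In the liver, each of the 6 genes was at least 2-fold lower with BHPF, as were 1.07% of the 36578 probes evaluated. The intensity of Stfa3 was 20978 in control liver and 272 in BHPF liver, a log2 ratio of -6.21 (73.9-fold lower). That of Csta2 was 9188 and 178, a log2 ratio of -5.63 (49.4-fold lower). That of Cstdc4 was 19672 and 382, a log2 ratio of -5.62 (49.2-fold lower). All 6 genes stayed well above background in BHPF liver, so that these folds were measured on both arrays. Stfa2 went from 22580 to 493, a log2 ratio of -5.45 (43.8-fold lower), and Cstdc5 from 35787 to 794, a log2 ratio of -5.43 (43.1-fold lower). Stfa1 kept the most signal, with 21558 in control liver and 832 in BHPF liver, a log2 ratio of -4.63 (24.8-fold lower). The median ratio of the 6 genes was -5.54 (46.4-fold lower), beside a median of 0.06 over all probes evaluated. Among the 13284 genes measured on both liver arrays, Stfa3, Csta2, Cstdc4, Stfa2 and Cstdc5 held the 5 lowest ratios in that order, and Stfa1 ranked 8.

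**Figure D1:**
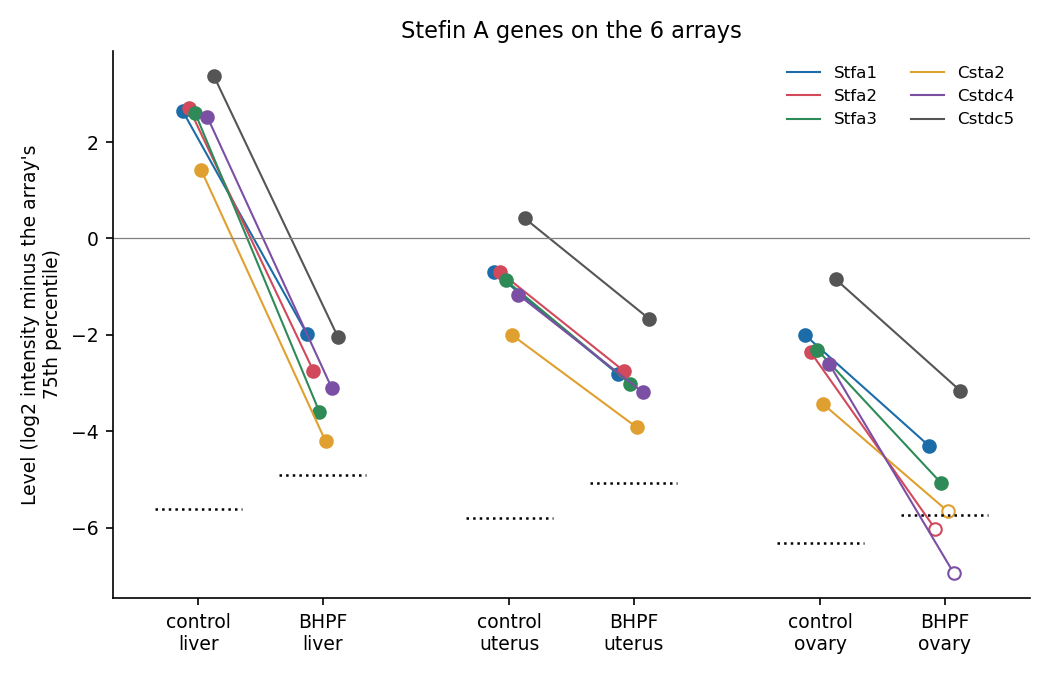
Level of each stefin A gene on each array (log2 intensity minus the 75th percentile of the array), with control and BHPF of 1 tissue joined by a line. Filled points are well above background, open points are not, the dotted line is the lowest level called well above background on that array, and each point is 1 array. All 6 genes start highest in control liver, and on the BHPF ovary array 3 of them are not well above background.

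In the uterus the same genes were lower by a nearly uniform amount. Stfa1 had an intensity of 3305 in control uterus and 644 in BHPF uterus, a log2 ratio of -2.12 (4.36-fold lower). Cstdc5 had 7128 and 1427, a log2 ratio of -2.08 (4.24-fold lower). Csta2 had 1326 and 299.8, a log2 ratio of -1.91 (3.76-fold lower), the smallest of the 6. Each of these readings was well above background. Stfa3 had 2915 and 559, a log2 ratio of -2.15 (4.43-fold lower). Stfa2 had 3296 and 671, a log2 ratio of -2.06 (4.17-fold lower). Cstdc4 had 2371 and 495, a log2 ratio of -2.02 (4.06-fold lower). Thus 6 of 6 genes were at least 2-fold lower, against 0.773% of the 38802 probes evaluated, and their median ratio was -2.07 (4.20-fold lower) beside 0.01 over all probes. The SD among the 6 ratios was 0.0854, less than the 0.138 that spot noise gives a ratio, so the genes could not be ordered in the uterus. In the liver the SD among the 6 ratios was 0.509, above the 0.136 of spot noise. That noise is a median over repeated probes well above background, and differences between probes in background are not part of it. The liver order changed with the processing, since with normexp Cstdc5 (-5.50) was lower than Csta2 (-4.95). On the BHPF uterus array the liver markers stood at the summed level given above. Their part in the uterine ratios was not tested. The direction in the uterus rests on the labels of the scanner files, and the deposited table as headed gives a median of 2.07.

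In the ovary the genes were dimmest, and 3 of the 6 were no longer well above background with BHPF. Stfa3 had an intensity of 1516 in control ovary and 189 in BHPF ovary, a log2 ratio of -2.77 (6.84-fold lower). Cstdc5 had 4170 and 717 and Stfa1 had 1880 and 324, and both gave a log2 ratio of -2.31 (4.95-fold lower). These 3 genes were measured on both arrays and ranked 4, 10 and 11 from the lowest of 15058 genes so measured. Stfa2 had 1457 in control ovary and 98.1, not well above background, in BHPF ovary, which makes it at least 10.4-fold lower. Cstdc4 had 1226 and 51.8, also not well above background, and was at least 8.73-fold lower. Csta2 had 692 and 127, with 2 of its 10 spots well above background in BHPF ovary, and was at least 4.66-fold lower. With bounds included, 6 of 6 genes were at least 2-fold lower, against 0.593% of the 41674 probes evaluated, and the median was -2.54 beside 0.00 over all probes. Of these 6 values 3 are bounds, so neither the median nor the SD of 0.486 among them is a measured one.

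**Figure D2:**
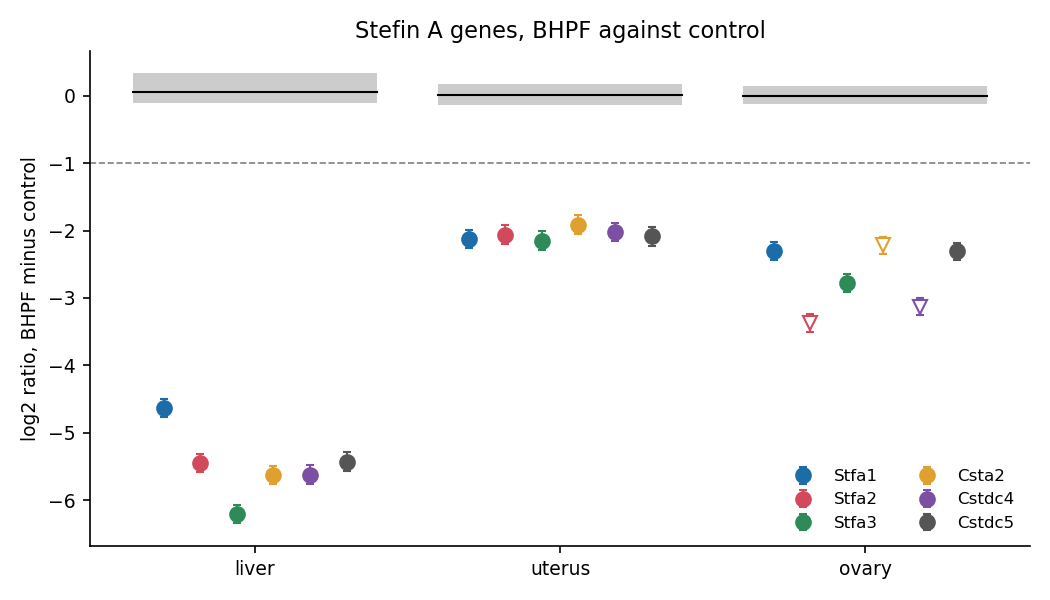
Log2 ratio, BHPF minus control, of each stefin A gene in each tissue, with bars of 1 SD of a ratio from spot noise. Open triangles are bounds (at least that much lower), the black line and grey band are the median and the quartiles of all probes evaluated, and the dashed line is 2-fold lower. The uterine ratios lie between -2.15 and -1.91, whereas those in liver lie between -6.21 and -4.63.

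On the arrays as labelled, BHPF liver and BHPF uterus lay close together. Their median difference, liver minus uterus, was -0.14 on the log2 scale (range -0.58 to 0.83), and its sign changed with the scaling. Of the 6 genes 0 differed by 2-fold, whereas 20.1% of all probes were at least 2-fold lower in BHPF liver and 19% at least 2-fold higher. This count also changed with the scaling. Stfa1 passed 2-fold, higher in BHPF liver, with the 50th percentile (1.17) and with quantile normalisation (1.19). With the uterus arrays exchanged, the median difference was -2.12 (range -2.73 to -1.29), and 6 of 6 genes were at least 2-fold lower in BHPF liver, against 19.0% of all probes. With the labels as deposited, Stfa1 had the highest of the 6 differences and Stfa3 the lowest. The summed level of the 6 genes, in multiples of the 75th percentile of the array, was 37.7 in control liver, 3.81 in control uterus and 1.46 in control ovary. With BHPF it was 0.896 in liver, 0.904 in uterus and 0.236 in ovary. BHPF ovary stayed lowest, and BHPF uterus exceeded it by a median of 1.90 (range 1.49 to 2.98, with 3 bounds among the 6 values), or 3.93 with the uterus arrays exchanged.

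Csta2 was the 1 gene of the set printed several times on each array, and its spots show how precise such a reading was. Its probe had 10 spots per array, of which 8 to 10 were kept. In control liver the lowest, median and highest spot had intensities of 8535, 8989 and 10258, and in BHPF liver 156, 179 and 206. In the uterus the spots ran from 1128 through 1311 to 1544 in the control and from 280.2 through 296 to 332 with BHPF. In the ovary they ran from 577 through 684 to 888 in the control and from 109 through 126 to 147 with BHPF. In none of the 3 tissues did the control spots overlap the BHPF spots. These are intensities before centring on the 75th percentile, which was 7500 in control ovary and 6389 in BHPF ovary. How many other repeated probes had spots that did not overlap was not counted, so the gap is not particular to Csta2. Repeated spots share 1 labelled RNA pool and say nothing about the spread between mice.

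**Figure D3:**
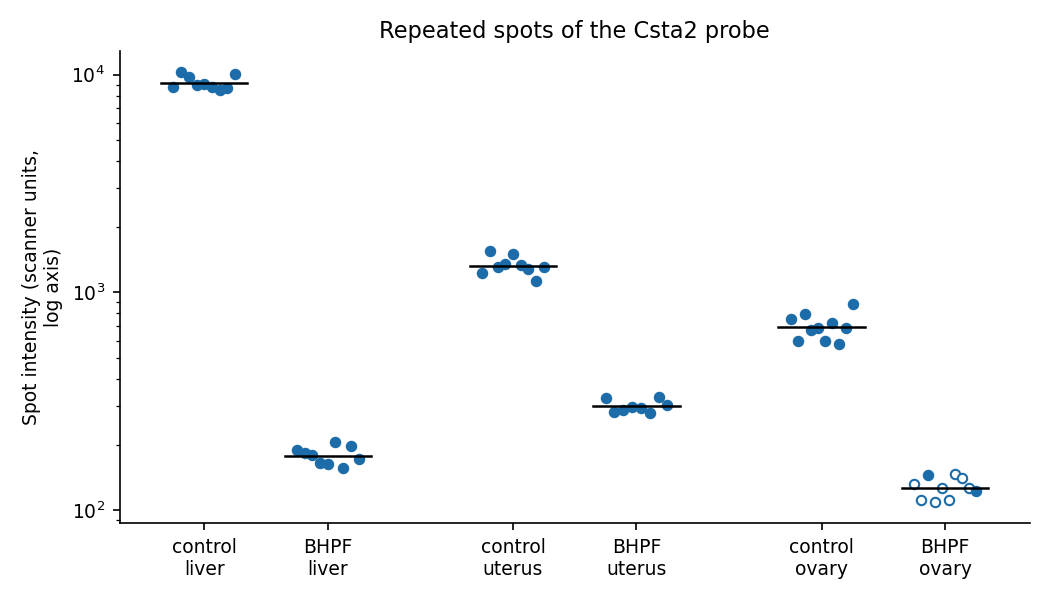
Intensity of each kept spot of the Csta2 probe on each array (log axis), with the geometric mean as a line. Filled spots are well above background and open spots are not. Intensities are before centring. Control and BHPF spots of this probe do not overlap in any tissue, and other repeated probes were not counted.

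Of the neighbouring stefin genes of the cluster, 4 had a probe. Along the chromosome the order is Csta1, Stfa2l1, Cstdc4, Csta3, Csta2, Stfa1, Cstdc3, Cstdc6, Cstdc5, Stfa2 and Stfa3, in which Cstdc3 was not matched to a probe. Stfa2l1, a stefin A2-like gene, had intensities of 11200 in control liver and 306 in BHPF liver, a log2 ratio of -5.13. In the uterus it had 893 and 190, a log2 ratio of -2.00, and in the ovary it was at least 3.61-fold lower. Its log2 ratios lay in the range of the 6 genes in liver and uterus. Cstdc6 was dimmer, with 2384 in control liver and 23.3, not well above background, in BHPF liver, at least 20.8-fold lower. Csta3, which lies between Cstdc4 and Csta2, had 404 in control liver and 287 in BHPF liver, a log2 ratio of -0.43. Csta1, at the edge of the cluster, was not well above background in control liver and had an intensity of 165 in BHPF liver. This makes Csta1 at least 2.47-fold higher with BHPF in liver, unlike the 6 genes. Of the 36578 probes evaluated in liver, 6.02% were at least 2-fold higher. The reading of 165 came from 1 spot and was close to background, since spots down to 110 passed in BHPF liver. In BHPF ovary and BHPF uterus Csta1 was not well above background. Csta3 was thus below the 2-fold threshold in liver, although it sits among the 6 genes on the chromosome.

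**Figure D4:**
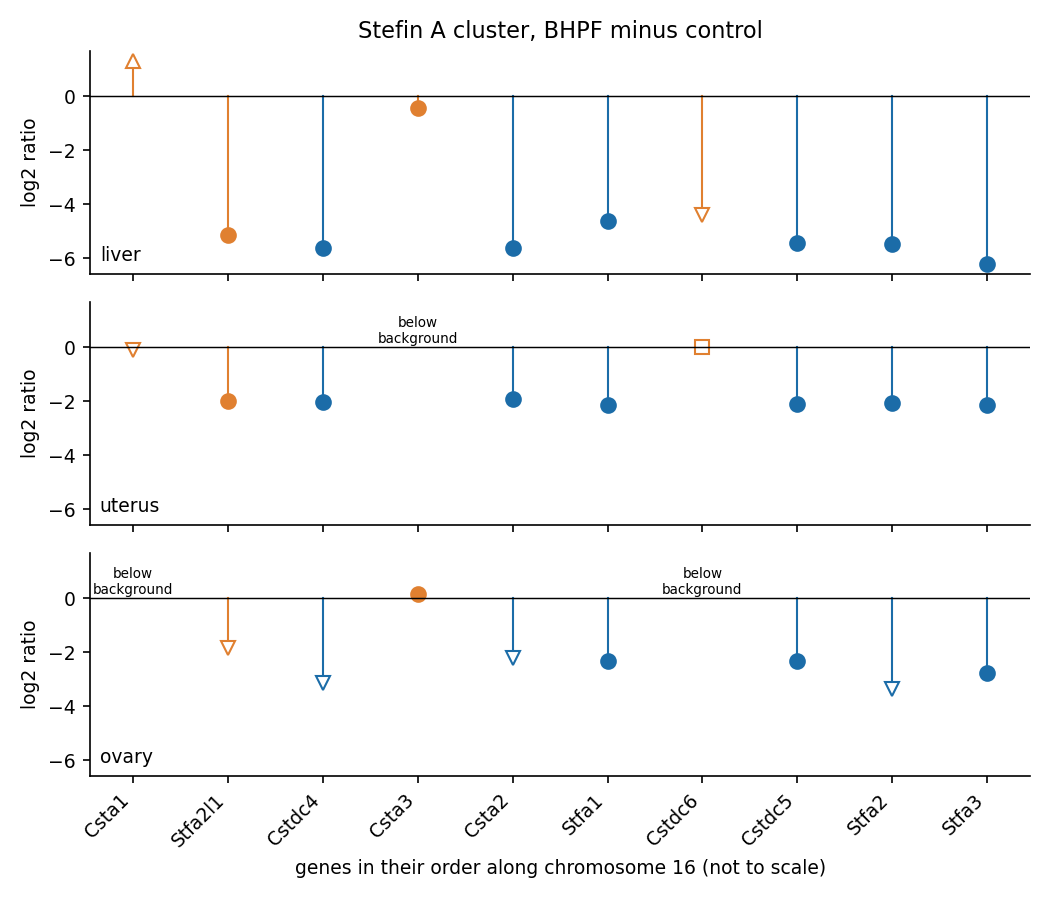
Log2 ratio, BHPF minus control, of the 10 stefin genes with a probe, in their order along chromosome 16 (blue, the 6 genes described; orange, neighbours). Circles were measured on both arrays, open triangles are bounds and an open square is a bound of 0. Genes well above background on neither array have no point. Csta3 lies near 0 in liver and ovary between genes that were several-fold lower. In the ovary it was close to background, so that a several-fold fall could not have been measured.

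The sequences just before the start of each gene are shown because the 6 genes were lower together. They are RefSeq promoter windows of GRCm38.p6, in which the 250 bases before the annotated start were searched on the strand of the gene. The 120 bases next to the start are printed for 4 genes, 5′ to 3′, with capitals for the 3 longest stretches that the windows of Stfa1, Stfa2, Stfa3, Cstdc4 and Cstdc5 have in common. They lie at chr16:36277028-36277147 on the plus strand for Stfa1, chr16:36455393-36455512 on the minus strand for Stfa3, chr16:36184092-36184211 on the plus strand for Cstdc4 and chr16:36221442-36221561 on the plus strand for Csta2.
Stfa1: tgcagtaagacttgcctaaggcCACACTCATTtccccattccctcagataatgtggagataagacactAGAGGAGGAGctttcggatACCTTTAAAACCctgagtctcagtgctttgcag
Stfa3: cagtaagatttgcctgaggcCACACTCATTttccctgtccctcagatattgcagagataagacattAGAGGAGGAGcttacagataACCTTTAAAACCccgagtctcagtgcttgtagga
Cstdc4: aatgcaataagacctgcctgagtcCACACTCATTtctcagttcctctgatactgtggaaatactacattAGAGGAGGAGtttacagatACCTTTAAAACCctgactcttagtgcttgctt
Csta2: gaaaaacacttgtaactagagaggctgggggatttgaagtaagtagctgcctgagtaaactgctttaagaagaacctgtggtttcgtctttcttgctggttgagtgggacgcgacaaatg
The stretch nearest to the start, ACCTTTAAAACC, began 32 to 34 bases before the start in Stfa1, Stfa2, Stfa3 and Cstdc4 and 12 bases before it in Cstdc5. It was found in 10 of 32851 windows (0.0304%), of which 9 belong to genes in the span of this cluster. CACACTCATT was found in 19 windows (0.0578%) and AGAGGAGGAG in 148 (0.451%). The window of Csta2 held none of the 3, although its liver ratio lay among those of the other genes. The window of Csta3 held ACCTTTAAAACC, with the liver ratio of -0.43 given above. Over the 250 bases, 10 pairs of windows without Csta2 had 65.1% to 83.5% identical bases in an alignment (median 72.3%), and the 5 pairs with Csta2 had 45.3% to 48.5%.

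Short motifs were also searched, on both strands. TTTAAA, which lies inside ACCTTTAAAACC, was in 5 of 6 windows and in 12.1% of all windows. TATAAA, the TATA box, was in 0 of 6 and in 12.4% of all. GAGGAA, a purine-rich word of the kind bound by Ets factors, was in 5 of 6, against 23.3% of all. The purine-rich word GAGGAG, which lies inside AGAGGAGGAG, was also in 5 of 6, against 28.7% of all. TTGCNNAA, a word of the kind bound by C/EBP factors, was in the windows of Stfa1 and Cstdc5 and in 9.56% of all windows. These matches describe letters in a window, and the windows of close copies are not independent of each other.

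Markers of neutrophils, in which stefin A transcripts are known, were set beside the genes. Of 23 neutrophil markers on the array, 14 were at least 2-fold lower in BHPF liver with bounds included. Of the 18 measured on both liver arrays 11 were, with a median log2 ratio of -1.80. In the ovary 7 of 17 measured markers were at least 2-fold lower and 1 was higher (median -0.38), and in the uterus 4 of 19 were lower and 1 was higher (median -0.07). The summed level of the list was 157 in control liver and 103 in BHPF liver, 42.7 and 40.9 in the ovary and 86.1 and 83.3 in the uterus. Such a sum follows its brightest probes and says little about the dimmer markers. In the ovary the brightest were 1 probe of Itgam, Csf3r and Trem1, with log2 ratios of 0.11, -0.01 and 0.09. The brightest markers by mean level were Trem1 and Csf3r, receptors of myeloid cells, and Lcn2, the iron-binding lipocalin. Their liver ratios were 0.03, -0.15 and -1.19. Over the arrays other than BHPF ovary, levels around the gene's own mean ran from -0.67 to 0.50 for Trem1. For Csf3r they ran from -0.44 to 0.36. Of the 23 liver ratios of the list, bounds included, 22 were below 0 and 1 was above 0. Of the 18 markers measured in liver none had a ratio as low as any stefin A gene, the lowest being Ltf, lactoferrin of neutrophil granules, at -4.18. The other 5 (Ctsg, Elane, Mmp9, Mpo and Padi4) have bounds and could not be placed. In the ovary Ltf (-3.98) and S100a8 (-3.13) were lower than any stefin A gene measured on both arrays. In the uterus Chil3, a chitinase-like protein of myeloid cells, was lower than all 6 at -2.72. Ltf had a ratio of 0.04 in the uterus. By likeness to the stefin A genes, described below, Ltf ranked 12016 of 12415 genes, and S100a8 and Chil3 ranked 4 and 6. Apart from S100a8, these genes were picked after their values were seen. How much of the stefin A ratios goes with the number of neutrophils was not tested.

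The other blood cell and epithelial lists had medians nearer 0 in liver, bounds included. Of 13 macrophage and monocyte markers, 2 were at least 2-fold lower in liver, 2 in ovary and 0 in uterus, with medians of -0.11, -0.51 and 0.08. In the uterus 2 were at least 2-fold higher, Clec4f (1.21) and Vsig4 (1.04), named after their values were seen. Their levels were 3.51 and 2.80 in control liver and -4.08 and -5.61 in control ovary. Whether these 2 ratios go with the liver markers on the BHPF uterus array was not tested. Lyz2, C1qa and C1qb, lysozyme and complement C1q chains of macrophages, had liver ratios of -0.11, -0.01 and -0.11. The markers at least 2-fold lower, named after their values were seen, were Marco, a scavenger receptor, with -1.85 in liver and -2.71 in ovary, and Adgre1, the F4/80 antigen, with -1.08 and -1.20. Of the lymphocyte markers evaluated, 2 of 10 were lower in liver, 1 of 10 in ovary and 0 of 9 in uterus. Markers of stratified epithelium, where human stefin A is known, had a median of 0.37 in liver, 0.00 in ovary and -0.10 in uterus, with 0, 0 and 1 at least 2-fold lower. The erythroid list had medians of -0.30, -0.55 and 0.58, with 1 gene at least 2-fold lower, in liver. Housekeeping genes had medians of 0.01, 0.14 and 0.01, and none differed by 2-fold.

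**Figure D5:**
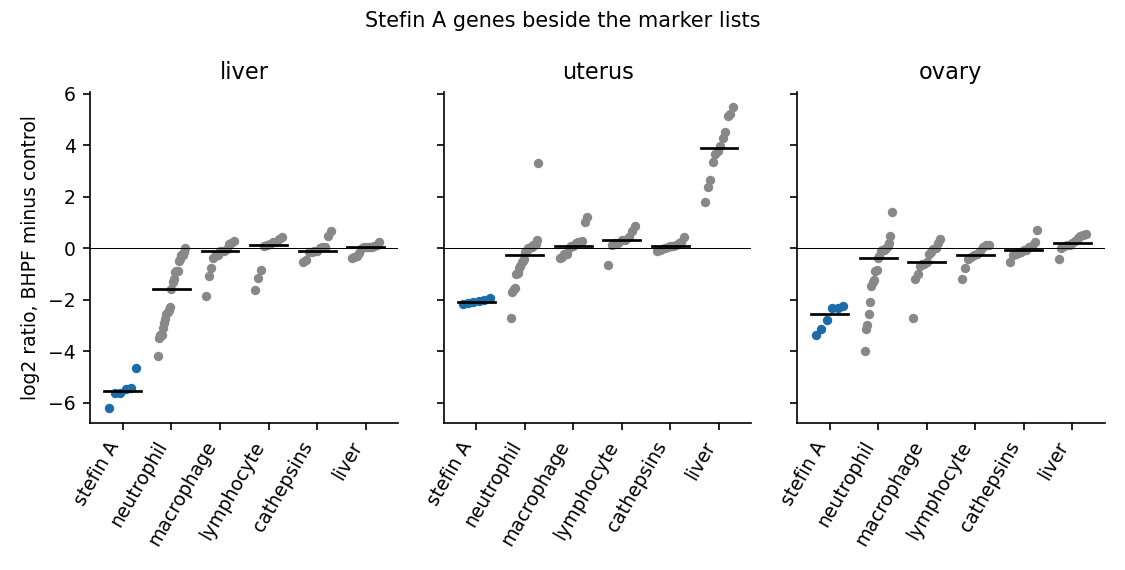
Log2 ratios, BHPF minus control, of the 6 stefin A genes (blue) and of the genes of 5 marker lists (grey) in each tissue, with bounds drawn at their value and the median of each list as a line. In liver the stefin A genes lie below the 18 neutrophil markers measured on both arrays, in ovary and uterus some neutrophil markers lie lower, and the liver markers are higher on the BHPF uterus array.

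The proteases of the type that stefins inhibit did not pass the 2-fold threshold. All 10 cysteine cathepsins of the list were measured in each tissue, and none differed by 2-fold, with medians of -0.03 in liver, -0.06 in ovary and 0.07 in uterus. The largest liver ratios were those of Ctsk, the collagen-degrading cathepsin K of osteoclasts, at 0.69, Ctsc, which activates granule serine proteases, at -0.51, and Ctsw, a cathepsin of cytotoxic lymphocytes, at 0.50. The list also held Lgmn, legumain, a lysosomal cysteine protease outside the papain-like family, with -0.45 in liver. Ctsl and Ctss, the lysosomal cathepsins L and S, both had -0.15. Of the 12 cystatins on the array from outside the cluster, none of those measured on both arrays of a tissue differed by 2-fold. Cstb, the cytosolic stefin B, had ratios of -0.28 in liver, -0.01 in ovary and -0.08 in uterus, and Cst3, the secreted cystatin C, had 0.28, 0.36 and 0.04. The ratios farthest from 0, Cst9 at 0.75 in ovary and Cst7 at 0.74 in uterus, were named after their values were seen.

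The genes most like the stefin A genes over the arrays were found by centring the levels of each gene and taking the root mean square difference from the centred mean of the 6 genes. This was done over 5 arrays, all but BHPF ovary, for the 12415 other genes well above background on all 5. Genes that were not well above background on 1 of these arrays, such as Cstdc6 in BHPF liver, could not enter. The 6 genes themselves differed from their mean by 0.08 to 0.33. Stfa2l1 came first at 0.51, followed by Mmp8, the neutrophil collagenase, at 0.73, Chil1, a chitinase-like protein, at 0.81, S100a8, a subunit of calprotectin, at 0.91, and Camp, the cathelicidin of neutrophil granules, at 1.04. Mmp8 had intensities of 5907 in control liver and 505 in BHPF liver, a log2 ratio of -3.48, with -1.32 in ovary and -1.71 in uterus. Chil1 had 7007 and 216 in liver, a log2 ratio of -4.96, and -3.15 in uterus. S100a8 had 33089.7 and 4771 in liver, a log2 ratio of -2.73, with -3.13 in ovary and -1.52 in uterus. Mmp8 and S100a8 thus had liver ratios nearer to 0 than any of the 6 genes. Chil1 was lower than Stfa1 (-4.63) in liver and lower than all 6 genes in uterus, and its ovary value was a bound of -1.34. The ovary ratio of S100a8 was lower than that of the 3 stefin A genes measured on both arrays.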

How the data were processed

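RNA of 6 pools, each from 3 mice, was hybridised to 6 arrays. Scans were processed by the authors in Agilent Feature Extraction (version 9.1 per the submitters' processing notes, 11.5.1.1 in the file header) who deposited 1 intensity for each spot after background subtraction, without normalisation across arrays. They also deposited a table of log2 values. Each column is the log2 intensity of an array minus a constant (100% of probes within 0.001), but the 2 uterus columns are exchanged relative to the scanner files, so the scanner files were used under their labels.

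Control and outlier spots were left out, repeated spots were averaged on the log2 scale, and each array was centred on its 75th percentile, taken over 55681 probes (Python 3.11.15, pandas 2.3.3). A probe well above background on 1 array only was set against the higher of its own level and the lowest level well above background on the other array, which gives a bound. Symbols came from the RefSeq accession of the probe (GRCm38.p6). For 26762 probes a symbol was found. The threshold was 2-fold, and with 1 array per group no test was made. Alternatives were normexp with an offset of 50 (limma 3.58.1, on median spot intensities, since the files used hold no mean), quantile normalisation, other percentiles, the authors' table, other treatments of dim probes and 4-fold. The ratio step was tested on simulated data.

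The members and the lists were chosen with earlier results of these data known. The genes named are the 6 members, up to 6 cystatins and 6 cathepsins by the size of the liver ratio, the 3 brightest genes of a marker list and the 5 genes most like the members.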

Additional observations from a re-analysis of the deposited data

Results flagged for a closer look

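Csta3, the neighbour that lies among the 6 genes on the chromosome, had a log2 ratio, BHPF minus control, of -0.43 in liver and 0.15 in ovary, so that the single arrays moved in opposite directions. The difference between the tissues was not tested. The ovary value lies close to the SD of 0.132 that spot noise gives a ratio there. Csta3 had an intensity of 139 in control ovary and 132 in BHPF ovary. The lowest intensities called well above background on these arrays were 93.3 and 120, so a several-fold fall could not have been measured.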

How the results depend on the processing

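Each alternative on the scanner files kept the median lower with BHPF in each tissue and kept the order of the control tissues. It kept the count of 6 genes at least 2-fold lower, except in the ovary with probes well above background on both arrays only (3 genes) and in the uterus at 4-fold (5 genes). Of 97 alternative values, 68 stayed within spot noise or within 1.5 times the count. Part of these 68 could not have moved. Taking the brightest probe of a gene changes nothing with 1 probe per gene. Other treatments of dim probes change nothing where all 6 genes were measured on both arrays. With normexp the median log2 ratio was -5.00 in liver, -2.19 in ovary and -1.90 in uterus. Quantile normalisation gave -4.99 in liver and -2.25 in uterus, and the 50th percentile gave -5.85 in liver, where it moved the median of all probes from 0.06 to -0.22. With probes well above background on both arrays only, the median of the 3 genes in the ovary was -2.31. For control liver minus control uterus the median difference was 3.99 with the 50th percentile, 3.07 with quantile normalisation and 3.06 with the 75th percentile of probes well above background on all arrays. For control liver minus control ovary it was 5.35, 4.60 and 4.51 in the same order, and 4.73 with normexp. For control ovary minus control uterus normexp gave -1.26. The authors' table as headed turned the uterine median to 2.07, with 0 genes at least 2-fold lower, the control ovary minus control uterus difference to 0.65 and control liver minus control uterus to 5.46. With its uterus columns exchanged, an alternative chosen after seeing the data, these were -2.07, 6 genes, -1.43 and 3.41. Alternatives for the BHPF arrays were also chosen after seeing the data. BHPF liver minus BHPF uterus was 0.20 with the 50th percentile and 0.20 with quantile normalisation, -0.51 with the 75th percentile of probes well above background on all arrays and -2.13 with the table as headed. BHPF uterus minus BHPF ovary was 1.52 with normexp, 1.74 with the 50th percentile and with quantile normalisation, 1.49 with probes well above background on both arrays and 3.93 with the table as headed. No paired analysis was possible because each group has 1 array. Signal over background limits the ovary, where 3 genes have bounds.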
